A study of Mus musculus with 20 samples.

Results

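The genes for 10 receptors of myeloid growth factors and inflammatory signals were followed by symbol in RNA from 20 mouse spleens filled with a transplanted T-cell acute lymphoblastic leukemia. The 10 members were Csf2ra, Csf2rb, Csf2rb2, Csf3r, Il6ra, Il1r2, Fpr1, Fpr2, Trem1 and Tlr4, and all 10 were found among the 26099 genes of the acute table and the 26486 genes of the survival table. All recipients were sub-lethally irradiated and carried leukemias with a conditional Acly allele. Acly encodes ATP-citrate lyase, which makes cytosolic acetyl-CoA from citrate. The acute arm held 6 control libraries from overtly leukemic recipients given corn oil and 4 knockout libraries from recipients given tamoxifen (3 mg per mouse) to delete Acly, all collected at 72 h. The survival arm held 5 control and 5 knockout libraries from recipients treated alike but only 48 h after the transplant, whose tissue was collected at the humane endpoint. Controls carried the same conditional leukemia, so tamoxifen and the loss of Acly cannot be told apart. Spleen suspensions were filtered and cleared of red cells. The labels name no sort for leukemic cells, no Cre driver and no host genotype, and they do not say how many independent leukemias were transplanted.

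These receptors let myeloid cells respond to growth factors, bacterial products and inflammatory cytokines. A shared beta chain (Csf2rb) pairs with a ligand-specific alpha chain (Csf2ra) to bind GM-CSF and signals through JAK2 and STAT5, and the G-CSF receptor (Csf3r) drives the production of neutrophils. Il6ra binds interleukin 6 and signals through the partner chain gp130. Il1r2 captures interleukin 1 without signaling, formyl peptide receptors guide neutrophils to bacterial peptides, and Tlr4 with Trem1 turns on and amplifies innate inflammation. In mouse blood-forming tissue most of these genes are best known from neutrophils, monocytes and their precursors, while Il6ra is also known from T cells.

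Because the 10 genes moved together in the acute arm, the promoters of 3 of them are shown for their letters. RefSeq's promoter table for GRCm38.p6 held 8 of the 10 members. The deposited tables name a later mouse build, so these coordinates belong to the promoter table only. The 300 bases of each promoter (250 before and 50 after the start) were searched on both strands for TTGCNNAA (C/EBP), GAGGAAG (PU.1) and TTCNNNGAA (STAT). Capitals mark matches, and each line gives the 250 bases before the start, 5′ to 3′ on the gene's strand. Csf3r lies on the plus strand at chr4:126024409-126024658, Csf2ra on the minus strand at chr19:61228419-61228668, and Fpr2 on the plus strand at chr17:17887574-17887823.
Csf3r: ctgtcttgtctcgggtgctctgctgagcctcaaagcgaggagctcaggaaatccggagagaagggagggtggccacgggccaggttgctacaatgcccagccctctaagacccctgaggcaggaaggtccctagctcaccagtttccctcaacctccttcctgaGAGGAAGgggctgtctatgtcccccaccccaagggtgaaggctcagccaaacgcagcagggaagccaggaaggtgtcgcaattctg
Csf2ra: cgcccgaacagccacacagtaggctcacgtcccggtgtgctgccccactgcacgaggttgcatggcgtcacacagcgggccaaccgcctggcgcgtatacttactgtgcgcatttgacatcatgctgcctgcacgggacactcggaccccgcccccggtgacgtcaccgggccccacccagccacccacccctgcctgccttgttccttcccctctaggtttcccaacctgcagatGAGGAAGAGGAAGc
Fpr2: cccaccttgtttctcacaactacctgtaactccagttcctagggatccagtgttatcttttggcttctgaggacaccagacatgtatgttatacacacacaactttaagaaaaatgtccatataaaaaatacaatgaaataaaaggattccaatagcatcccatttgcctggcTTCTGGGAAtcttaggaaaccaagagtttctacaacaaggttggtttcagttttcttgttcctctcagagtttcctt

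The Csf3r match to GAGGAAG spans -86 to -80 from the start, and Csf2ra holds 2 overlapping matches, from -14 to -8 and from -8 to -2. The Fpr2 match to TTCNNNGAA spans -77 to -69. GAGGAAG was found in 3 of the 8 member promoters (Csf3r, Csf2rb2 and Csf2ra) and in 13.6% of all 32851 promoters in the table. TTCNNNGAA was found in 4 of 8 (Il1r2, Csf2rb2, Fpr2 and Trem1) against 8.30% of all promoters, and TTGCNNAA in 0 of 8 against 10.8%. For Trem1 the bases after the listed start were not found near the start of its GENCODE transcripts. Its window may therefore not be its promoter. All 3 promoters printed here hold a match, while those of Il6ra and Fpr1 held none. These matches describe letters in a window and are not evidence of binding.

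RNA of Acly, the targeted gene, lay between 7406 and 8280 normalized counts in the acute controls, against 4823 to 6402 in the matching knockouts. The survival controls had 7396 to 8825 and their knockouts 2174 to 4017, with no overlap in either arm. The acute fall of Acly, -0.46 on the log2 scale (limma adjusted p = 0.000866), was -0.08 and not called after scaling to the T-cell receptor beta constant genes Trbc1 and Trbc2 (adjusted p = 0.654). In the acute arm, less Acly RNA per leukemic cell and a smaller leukemic share of the RNA therefore cannot be told apart. Library totals were 19432235 to 20731983 normalized counts (acute) and 19998354 to 21623571 (survival). The 15 T-lineage markers summed to 228362 to 237127 in acute controls, 151210 to 202680 in acute knockouts, 208165 to 241287 in survival controls and 208339 to 234625 in survival knockouts. Acute knockouts 2 and 3 had the highest neutrophil marker sums of the acute arm (652982 and 397953 normalized counts), followed by knockouts 4 and 1 (232821 and 192979). A normalized count here is the value as deposited after DESeq normalization, made separately in each table, so levels are compared only within an arm. Whether it is a whole read count over a single factor per library is not known.

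All 10 receptor genes rose in the acute knockout and none was called in the survival knockout. In the acute arm the fold changes ran from 5.19-fold for Tlr4 to 19.2-fold for Il1r2, and the median over the 10 genes was 3.40 on the log2 scale, beside -0.023 for all 16363 genes tested. Fold changes are on the log2(normalized count + 1) scale and come from limma fitted over all genes tested. limma called 10 of 10 members higher at a Benjamini-Hochberg adjusted p under 0.05, where 16.7% of all genes tested were called higher. Knockout and control libraries did not overlap for any of the 10, against 12.7% of all genes tested that lay wholly above the controls. The adjusted p was 0.000161 for Csf2ra and 3.84e-05 for each of the other 9 genes. All 10 passed the filter on low values (10 normalized counts in at least 4 libraries) in the control libraries alone.

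**Figure D1:**
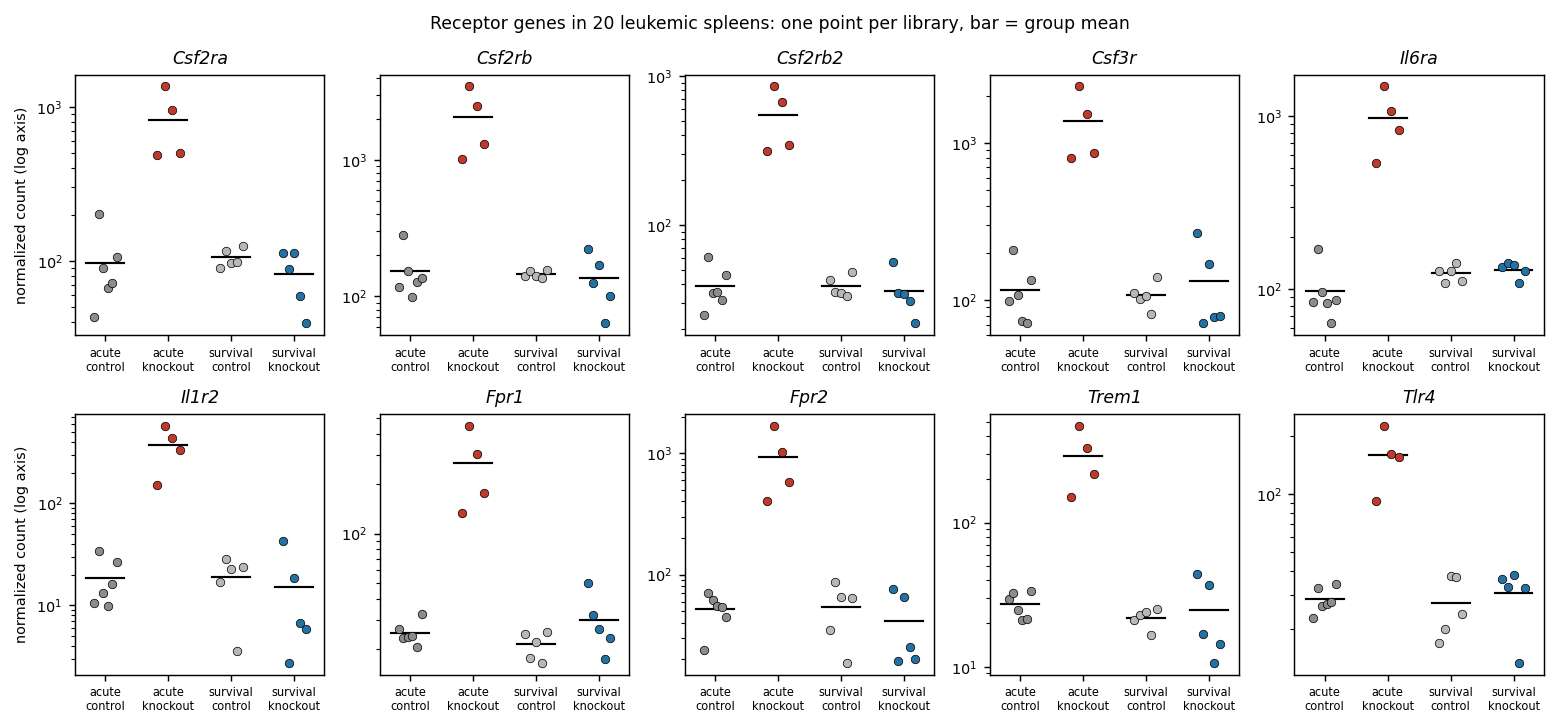
Normalized counts of the 10 receptor genes (log axis, own range in each panel) in the acute control, acute knockout, survival control and survival knockout libraries; each point is a library and each bar a group mean. Every acute knockout lies above every acute control, while both survival groups overlap for all 10 genes.

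The GM-CSF receptor chains rose together. Csf2ra, the alpha chain that binds GM-CSF, had a lowest, median and highest value of 43.0, 80.9 and 200.2 normalized counts in the 6 acute controls and values of 485, 1366, 956 and 499.7 in knockouts 1 to 4. The lowest knockout lay 2.42 times above the highest control, control 2, the narrowest gap among the 10 genes. The rise was 3.11 on the log2 scale (SE 0.393), or 8.66-fold.

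Csf2rb, the beta chain shared by the receptors for GM-CSF, interleukin 3 and interleukin 5, had 99.6, 132 and 281 normalized counts as the lowest, median and highest acute control. Acute knockouts 1 to 4 had 1015, 3474, 2474 and 1310.1, a rise of 3.67 (SE 0.344) or 12.7-fold. Csf2rb2, the mouse paralog that serves the interleukin 3 receptor, ran from 24.7 over a median of 35.1 to 60.7 in controls and had 315, 849.6, 663 and 343 in the knockouts. It rose by 3.70 (SE 0.308), or 13-fold. Both beta chain genes were lowest in knockout 1 and highest in knockout 2.

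The 2 beta chain genes are paralogs that share part of their sequence, and reads from shared parts can be split between them. In GENCODE transcripts for GRCm38, 18.8% of the 31-base words of Csf2rb and 28.6% of those of Csf2rb2 occurred in the other gene. The annotation used by the submitters is not given in the sources used here. Their sum, which should depend less on such a split, went from 191 ± 76.8 (SD, n = 6) to 2611 ± 1386 (n = 4) normalized counts. The log2 difference of the sum was 3.68 (p = 0.00952 in a two-sided exact permutation test, its lowest value over 210 arrangements).

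Csf3r, the G-CSF receptor of the neutrophil lineage, had 72.2, 103 and 210.2 normalized counts as the lowest, median and highest acute control. The acute knockouts had 807, 2289, 1537 and 865, a rise of 3.52 (SE 0.338) or 11.5-fold. Il6ra, the interleukin 6 receptor alpha chain, had 63.6, 85.7 and 172 in the controls and 540.1, 1488, 1068 and 829.1 in the knockouts, a rise of 3.29 (SE 0.288) or 9.78-fold. For both genes control 2 was the highest control, and every knockout still stood at least 3.15 times above it.

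Il1r2, the decoy receptor for interleukin 1, had the largest fold change of the 10. Its controls had 9.91, 14.7 and 33.9 normalized counts as lowest, median and highest, and the knockouts had 151, 577, 436 and 336. The rise was 4.26 (SE 0.412), or 19.2-fold, with a 95% interval of 10.3-fold to 35.8-fold.

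The formyl peptide receptors rose as a pair. Fpr1 had 20.6, 23.6 and 32.7 normalized counts as the lowest, median and highest control and 134, 451, 304 and 176 in the knockouts, a rise of 3.22 (SE 0.296) or 9.30-fold. Fpr2 had 23.9, 54.6 and 70.4 in the controls and 407, 1681, 1028 and 577 in the knockouts, a rise of 4.00 (SE 0.377) or 15.9-fold. Only 1.55% of the 31-base words of Fpr1 occurred in Fpr2, while 14.2% of those of Fpr2 occurred in other formyl peptide receptor genes. Their sum had a log2 difference of 3.76 (p = 0.00952 in the same exact test, again its lowest value), and 4 such sums were tested. In the survival arm the sums differed by -0.20 for the beta chains (exact permutation p = 0.468) and -0.13 for Fpr1 and Fpr2 (p = 0.81).

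The innate activating receptors Trem1 and Tlr4 rose as well. Trem1, which amplifies inflammatory signals in neutrophils and monocytes, had 21.2, 27.3 and 33.8 normalized counts as the lowest, median and highest control and 151, 471, 328 and 217 in the knockouts. It rose by 3.27 (SE 0.285), or 9.64-fold. Tlr4, the receptor for bacterial lipopolysaccharide, had 22.9, 27.3 and 34.3 in the controls and 91.8, 225, 161 and 155 in the knockouts. Its rise of 2.38 (SE 0.232), or 5.19-fold, was the smallest of the 10.

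The order of the acute knockout libraries was shared across the genes. Knockout 2 was highest and knockout 3 second for 10 of 10 genes, and knockout 1 was lowest for 10 of 10. Among acute controls, control 2 was highest for 7 of 10 and control 6 for 3. Without knockouts 2 and 3 all 10 genes were still called, with log2 fold changes from 2.04 for Tlr4 to 3.69 for Il1r2 and a highest adjusted p of 0.00325 in limma. In that fit 2137 of the 16363 genes tested were called in either direction.

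In the survival arm 0 of 10 genes were called by limma, where 0.0124% of the 16136 genes tested were called. At an unadjusted p under 0.05 there were 0 of 10, beside 8.74% of all genes tested. Log2 fold changes ran from -0.61 for Il1r2 to 0.40 for Fpr1, with 4 above and 6 below 0 and a median of -0.097, beside 0.0087 for all genes tested. Adjusted p-values ran from 0.664 to 0.994. The survival groups overlapped for all 10 genes, where 1.21% of genes tested lay wholly above and 0.793% wholly below the controls. A p above the threshold does not show that the groups were alike, so the 95% intervals are given for each gene.

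Csf2ra had 89.9, 116, 96.9, 98.5 and 124 normalized counts in survival controls 1 to 5 and 112, 88.3, 113, 59.1 and 39.1 in knockouts 1 to 5. The log2 difference was -0.45 with an interval of -1.01 to 0.12, and knockouts 2, 4 and 5 lay below all controls. Csf2rb had 141, 154, 142, 136 and 157 in controls and 224, 125, 170.5, 63.4 and 100.5 in knockouts, on both sides of the controls (-0.22, interval -0.79 to 0.35). Csf2rb2 had 42.8, 35.5, 35, 33.5 and 48.0 in controls and 56.2, 35.1, 34.5, 31 and 21.8 in knockouts (-0.17, interval -0.69 to 0.34). The knockouts were thus more spread than the controls for each of these genes, with a coefficient of variation of 45.6% against 6.34% for Csf2rb.

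Csf3r had 112, 102, 107, 82.3 and 141 normalized counts in survival controls and 269, 71.3, 169.5, 78.3 and 79.0 in knockouts. Knockouts 1 and 3 lay above all controls and the other 3 below all controls, with a log2 difference of 0.10 and an interval of -0.61 to 0.81. Without knockout 1 the difference was -0.20 and without knockout 3 it was -0.035, so its sign rests on those libraries. Il6ra had 128, 109, 129, 142 and 112 in controls and 135, 142, 138, 108 and 128 in knockouts. It varied least of the 10 among the knockouts, with a coefficient of variation of 10.2% (10.8% in controls), and its interval of -0.20 to 0.34 was the narrowest of the 10.

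Il1r2 was the most variable of the members in the survival arm, with 16.7, 28.7, 22.9, 3.53 and 23.5 normalized counts in controls and 42.3, 2.73, 18.3, 6.77 and 5.85 in knockouts. Its log2 difference was -0.61 with an interval of -2.03 to 0.80. Fpr1 had 24.6, 17.7, 22, 16.5 and 25.4 in controls and 50, 31.8, 26.4, 17.4 and 23.4 in knockouts, of which 3 lay above all controls (0.40, interval -0.20 to 1.00). Fpr2 had 34.7, 86.1, 65.3, 18.8 and 64.6 in controls and 75.8, 19.3, 65.5, 25.2 and 20.4 in knockouts (-0.44, interval -1.45 to 0.57). The paired formyl peptide receptors thus had differences of opposite sign, neither of them called.

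Trem1 had 20.9, 22.8, 24.0, 16.5 and 25.2 normalized counts in survival controls and 44.0, 17, 37.1, 10.7 and 14.5 in knockouts. Knockouts 1 and 3 again lay above all controls, and the log2 difference was -0.021 with an interval of -0.80 to 0.75. Tlr4 had 16.9, 20.2, 37.8, 37.3 and 23.9 in controls and 36.3, 33.2, 38.3, 13.4 and 32.5 in knockouts, with knockout 4 far below the other 4 (0.16, interval -0.54 to 0.86). Survival knockout 1 was the highest knockout for 7 of 10 genes and knockout 4 the lowest for 5. Among survival controls, control 4 was lowest for 7 of 10 genes.

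**Figure D2:**
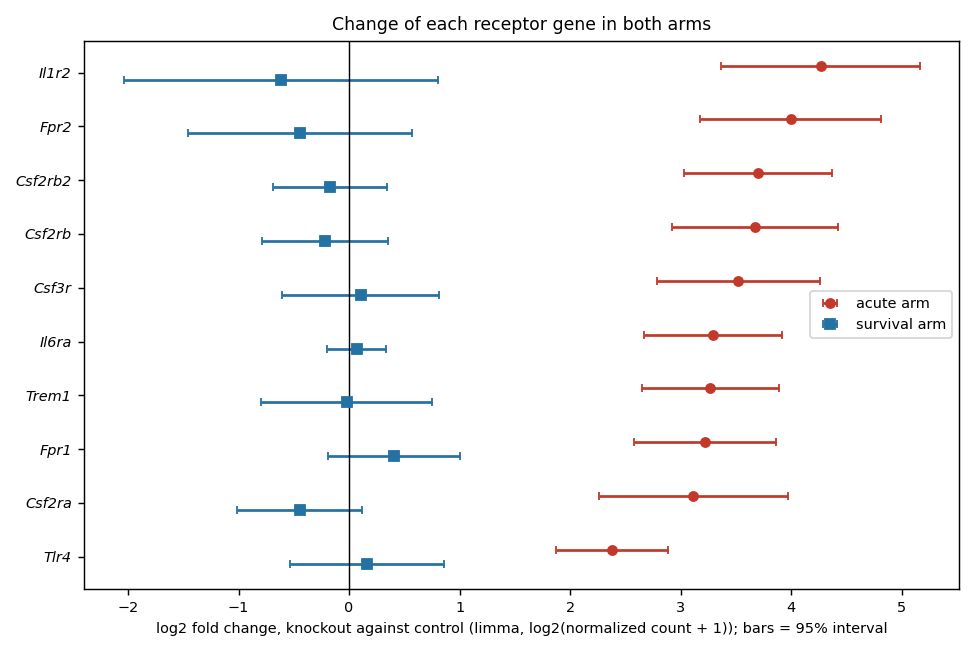
Log2 fold change of each receptor gene, knockout against control, in the acute arm (circles) and the survival arm (squares), with 95% intervals from limma; genes are ordered by the acute value. The acute intervals all lie above 0, from 1.87 upward for Tlr4, and every survival interval spans 0.

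The difference between the arms was itself tested in limma over 20 libraries, as the survival fold change less the acute one. It was called for 10 of 10 genes, all lower in the survival arm, where 10.9% of the 15673 genes tested in both arms were called in that direction. The differences ran from -2.22 (SE 0.410) for Tlr4 to -4.88 (SE 0.84) for Il1r2, with adjusted p-values from 7.4e-06 to 0.000658. Their median was -3.49, beside 0.032 for all genes tested in both arms.

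Markers of the cells known to carry these receptors moved with them in the acute arm. Of 18 neutrophil markers 18 were called higher in the acute knockout, with a median log2 fold change of 3.78. Together they held 13175 to 53119 normalized counts per acute control library, against 192979 to 652982 per acute knockout library. Mmp8 and Mmp9, the neutrophil collagenase and a granule gelatinase, rose by 4.67 (SE 0.393) and 4.57 (SE 0.363). No listed neutrophil marker was at 0 in all libraries of a group.

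Of 12 monocyte markers 10 were higher and 1 lower (median 2.04), with a sum of 7422 to 11414 normalized counts in controls and 21834 to 51884 in knockouts. F13a1, a coagulation factor subunit of monocytes, rose by 4.87 (SE 0.47), and Ccr2, a chemokine receptor of inflammatory monocytes, by 4.36 (SE 0.349). The lower one was Ace, named here after its value was seen, at -0.43 (limma adjusted p = 0.00504). Ace was -0.06 after scaling to Trbc1 and Trbc2 (adjusted p = 0.587) and -0.30 without knockouts 2 and 3 (0.077), not called in either. Ace averaged 4497.5 normalized counts in acute controls and 3340 in knockouts, and Chil3 1592 and 17019. The monocyte marker sum thus rests largely on these genes and is not an even measure of the list. Of 14 macrophage markers 12 were higher with a smaller median of 0.75, led by the iron exporter Slc40a1 (1.17, SE 0.218) and the lysosomal glycoprotein Cd68 (1.08, SE 0.185). Without knockouts 2 and 3 the counts were 18 of 18 neutrophil, 8 of 12 monocyte and 4 of 14 macrophage markers higher. Over all genes tested that fit called 2137 in either direction, against 5140 with every library.

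Of 15 T-lineage markers 13 were lower (median -0.34), where 14.7% of all genes tested were called lower. Scaling to Trbc1 and Trbc2 gave 1 higher and 3 lower, with a median of 0.041. Both are T-cell genes themselves, so this scaling draws T-lineage markers towards no change and cannot decide whether they fell. That scaling raised the median of all genes by 0.37 and left all 10 receptor genes called higher. With it 7455 of the 16363 genes tested were called in either direction. In whole spleen suspensions, more cells of a type and more RNA per cell cannot be told apart. With the mean log2 level of the neutrophil markers as a covariate, 0 of 10 receptor genes and 0 of all genes tested were called, with a lowest adjusted p of 0.851 among the 10. That mean did not overlap between the acute groups (8.02 to 9.84 in controls, 11.7 to 13.5 in knockouts). The part of the marker shift in the receptor result was not tested.

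Relative to the neutrophil marker mean of the same library, the acute groups overlapped for 8 of the 10 receptor genes. For these the knockout mean of the relative log2 value less the control mean was -0.07 for Csf2rb2, -0.10 for Csf2rb, 0.23 for Fpr2, -0.25 for Csf3r, -0.48 for Il6ra, 0.50 for Il1r2, -0.50 for Trem1 and -0.55 for Fpr1. Groups did not overlap for Tlr4, which went from -3.89 ± 0.487 in controls to -5.28 ± 0.401 in knockouts, nor for Csf2ra, from -2.32 ± 0.170 to -2.97 ± 0.146 (SD, n = 6 and 4). These relative values are a description with no test. On this scale 95.7% of all genes tested were lower in every knockout than in every control, as were these 2 of the 10.

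**Figure D3:**
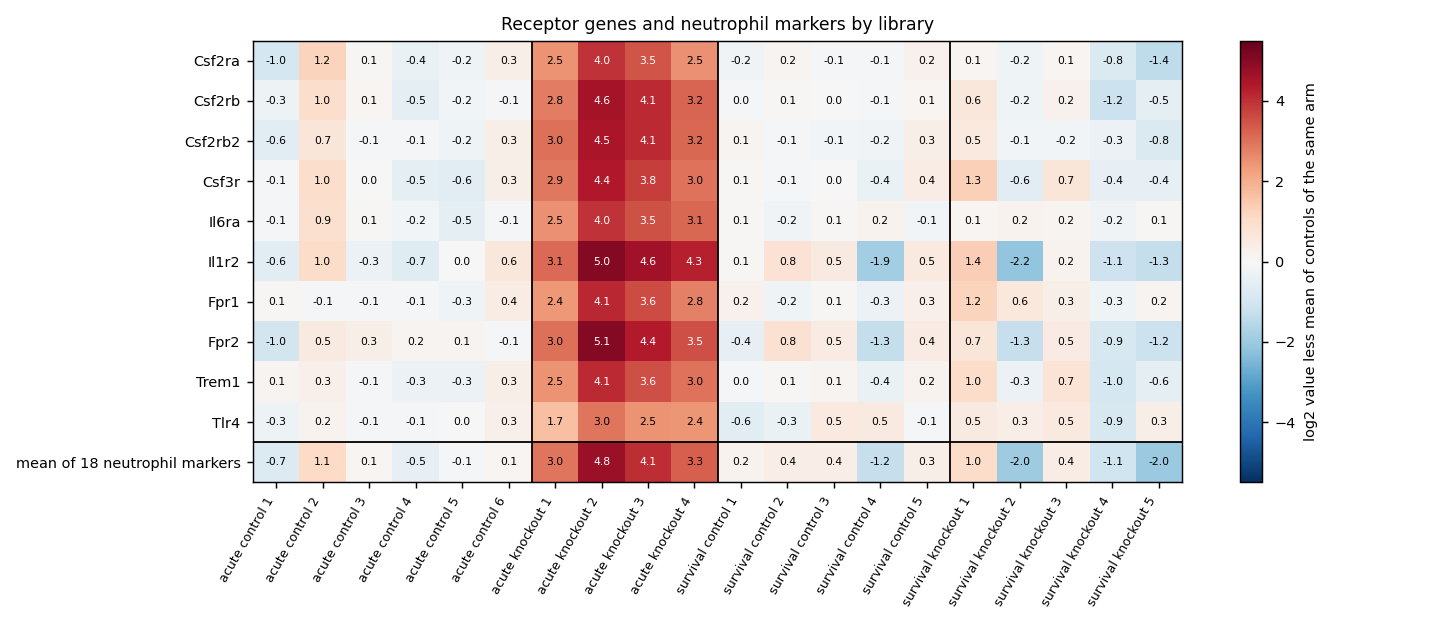
Log2 value of each receptor gene, and of the mean of 18 neutrophil markers, in 20 libraries, less the mean of the controls of the same arm; red is above and blue below those controls. Acute knockouts 2 and 3 are the reddest columns in every row, and survival knockouts 2, 4 and 5 are blue in the neutrophil row while Il6ra stays near 0.

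In the survival arm the neutrophil marker sum spread within the groups. It was 21190 to 28336 normalized counts in 4 survival controls and 5842 in control 4. It was 33183 and 27981 in knockouts 1 and 3 and 3239, 8603 and 3187 in knockouts 2, 4 and 5. None of 17 tested neutrophil markers was called in limma, and 0 had an unadjusted p under 0.05. No gene of the other marker lists was called either. At an unadjusted p under 0.05 there were 7 of 14 macrophage markers (median log2 fold change 0.34), beside 8.74% of all genes tested. Counts on other lists were 3 of 12 monocyte, 4 of 10 B-cell (median -0.61) and 1 of 6 dendritic cell markers. T-lineage markers had 1 of 15. The same libraries that were low in the neutrophil marker sum were the lowest of the survival arm for Il1r2, Fpr2, Csf3r, Trem1 and Csf2rb. For Csf2ra, Csf2rb2, Fpr1, Tlr4 and Il6ra the lowest libraries were not all the same ones.

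Compared per kilobase of the longest protein-coding transcript, Csf2ra, Fpr2, Csf3r and Csf2rb had the highest acute control levels. These were 52.1 ± 29.8, 45.6 ± 14.1, 33.4 ± 14.8 and 31.1 ± 13.4 normalized counts per kilobase (SD, n = 6), so neighbours in this order did not differ beyond their spread. Fpr1 (18.9 ± 3.15), Il1r2 (12.9 ± 6.84) and Il6ra (11.3 ± 4.37) followed, then Trem1 (9.10 ± 1.86), Csf2rb2 (8.20 ± 2.70) and Tlr4 (6.99 ± 1.04). In acute knockouts Fpr2 was highest at 815 ± 502 per kilobase (n = 4) and Tlr4 lowest at 38.9 ± 13.4. Which transcript the spleens used is not known, so this order is approximate.

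Genes of the same pathways were read from 4 lists: ligands, receptor partners with some related receptors, signaling proteins, and induced feedback genes and targets. Of 7 ligands tested in the acute arm 5 were higher and 0 lower, with a median log2 fold change of 2.39. Of these, 2 ligands reached the filter only with the help of knockout libraries, and 1 of them, Il1rn, is among the 5. Anxa1, a formyl peptide receptor ligand that limits inflammation, rose from 1049.9 ± 479.7 to 14233 ± 7751 normalized counts (3.71, SE 0.357). Pglyrp1, a neutrophil granule protein reported to bind Trem1, rose from 347 ± 180.0 to 4675 ± 2679 (3.71, SE 0.383). Csf1, the macrophage growth factor, rose from 17 ± 5.15 to 93.3 ± 28.1 (2.39, SE 0.272).

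Il1rn, the antagonist of the interleukin 1 receptor, rose from 8.09 ± 6.27 to 85.2 ± 53.3 normalized counts (3.51, SE 0.74). Leaving out knockouts 2 and 3 gave 2.70 for Il1rn with no call (limma adjusted p = 0.0856), and 3 of 7 ligands were higher. That fit called 2137 of the 16363 genes tested in either direction. The genes of the growth factors GM-CSF and interleukin 3, Csf2 and Il3, had no values in either arm. Csf3 averaged 1.78 normalized counts in acute controls and 0.66 in knockouts, below the filter.

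Of 11 receptor partners tested in the acute arm 7 were higher and 1 lower (median 0.99). The 7 include Csf1r, Tlr2 and Trem3, which are related receptors and not partner chains of a member. Tyrobp (1.09, limma adjusted p = 0.619), Ly96 (0.37, adjusted p = 0.301) and Il5ra (-0.40, adjusted p = 0.118) were not called. Csf1r and these uncalled genes were named after their values were seen. Trem3, a paralog of Trem1, rose from 77.7 ± 45.5 to 953 ± 489.7 normalized counts (3.62, SE 0.377). Cd14, which hands lipopolysaccharide to Tlr4, rose by 1.93 (SE 0.249), Tlr2, a receptor for bacterial lipoproteins, by 1.19 (SE 0.206), and Il1r1, the signaling interleukin 1 receptor, by 1.61 (SE 0.185). The lower one, named after its value was seen, was Il6st, the gp130 partner of Il6ra, at -0.20 (SE 0.0557). Il6st was 0.18 and not called after scaling to Trbc1 and Trbc2 (limma adjusted p = 0.0652), and -0.10 with no call once knockouts 2 and 3 were left out (0.257). Il6ra and its partner gene thus had fold changes of opposite sign as deposited.

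Of 24 signaling proteins 17 were higher and 0 lower, with a median of 0.45. Card9, an adaptor of pattern receptors, rose by 3.40 (SE 0.348), Plcg2, a phospholipase of immune receptors, by 3.26 (SE 0.323), and Irak3, a brake on Toll-like receptor signaling, by 3.01 (SE 0.352). Of 10 tested feedback genes and targets 5 were higher and 0 lower (median 0.23). The uncalled ones were Socs3 (0.0086), Socs1 (-0.26), Nfkbia (0.047), Tnfaip3 (-0.13) and Cxcl1 (0.094), with limma adjusted p-values from 0.163 to 0.964. They were named after their values were seen. Whether signaling through the receptors changed was not tested. Cish, a STAT5-induced inhibitor, rose by 2.41 (SE 0.318), Bcl3, a nuclear partner of NF-kappaB, by 2.59 (SE 0.31), and Nfkbiz, a nuclear inhibitor-like factor of the same system, by 0.62 (SE 0.105). Tnf, an inflammatory cytokine, rose by 1.29 (SE 0.292), and lost its call without knockouts 2 and 3, at 0.69 (adjusted p = 0.0978). Without those libraries 13 of 24 signaling proteins, 5 of 11 partners and 3 of 10 targets were higher, beside 2137 of all 16363 genes called in either direction.

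In the survival arm limma called 0 genes on each of the 4 pathway lists, while 0 of 6 ligands, 3 of 11 partners, 3 of 24 signaling proteins and 1 of 10 targets had an unadjusted p under 0.05, beside the 8.74% of all genes.

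**Figure D4:**
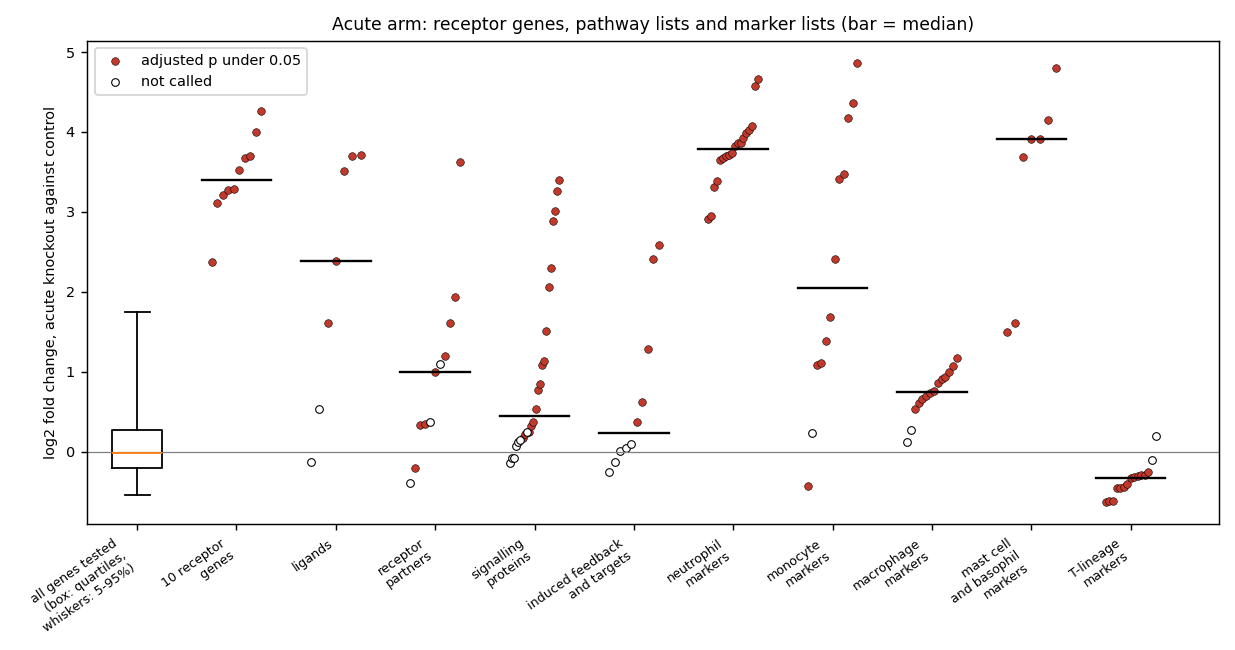
Log2 fold change, acute knockout against control, of the 10 receptor genes, 4 pathway lists and 5 marker lists beside a box of all 16363 genes tested (quartiles, with whiskers from the 5th to the 95th percentile); filled points were called and bars are medians. The receptor genes sit at 2.38 to 4.26. Medians were 3.78 for neutrophil markers, 3.91 for mast cell and basophil markers and 0.45 for signaling proteins. The called points include Il1rn, Cpa3 and Ms4a2, which reached the filter only with the help of knockout libraries.

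The genes whose pattern was most like each member were found by the root mean square difference of log2 profiles over 20 libraries, centred on the controls of each arm, among 12156 genes. Among the 2 closest to Csf2rb was Alox5ap, which helps make leukotrienes, at 0.21, and among the 2 closest to Csf2rb2 was Apobr (0.27). Cebpa, a myeloid transcription factor gene, was closest to Csf2ra (0.25), followed by Zbtb7b (0.28), and Myo1f (0.30) and Sqor (0.30) to Csf3r.

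Sqor (0.26) and Ifitm2 (0.27) were closest to Trem1, Skap2 (0.27) and Fcgr3, a receptor for antibody Fc parts (0.28), to Il6ra, and Fcgr3 (0.29) and Myadm (0.33) to Fpr1. Chi3l1 (0.26) and Pygl (0.31) were closest to Fpr2, Ifitm6 (0.38) and Hp, the haptoglobin gene (0.39), to Il1r2, and Kcnj2 (0.27) and Wdfy4 (0.31) to Tlr4. Among the 45 pairs of members, Csf3r and Trem1 were the most alike (0.28) and Il1r2 and Tlr4 the least (1.3). Genes with near patterns share the same libraries and are not independent.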

How the data were processed

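Strand-specific RNA libraries of 20 spleens were sequenced. The values are a signal of DESeq-normalized counts per gene and library, deposited by the authors in 2 tables that were scaled separately. Per the submitters' processing notes, kallisto 0.46.0, the build GRCm39 and DESeq were used. How transcripts were summed to genes, and with which annotation, is not given in the sources used here. Small deposited values were not whole multiples of a common step (57.7 to 83.9% lay within 0.1 of one), so whole reads were not recovered, count tests were not run and read depth is unknown.

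Deposited values were taken to log2(normalized count + 1). Genes entered a fit where they reached 10 in at least 4 acute or 5 survival libraries. limma 3.58.1 in R 4.3.3 (lmFit, eBayes with trend, group means, no covariate) gave two-sided p-values, adjusted by Benjamini-Hochberg over all genes tested and called under 0.05. The difference between arms used all 20 libraries and the genes that entered both fits. Paralog sums were compared by an exact permutation test on 4 sums, unadjusted (scipy 1.17.1). The fit was tested on simulated data. Nothing says that libraries came from separate cultures or leukemias, so p-values measure only the spread between these libraries.

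The members, lists and tests were chosen with earlier results of these data known. Named genes are the 10 members and Acly, up to 4 called genes of each pathway list and 2 of the neutrophil, monocyte and macrophage lists with the largest fold changes, and the 2 nearest genes by profile; a few genes that this rule names are not reported here. Alternatives were other pseudocounts, filters and scalings, no trend, array weights, a replicate block, a neutrophil covariate and leaving out libraries. Figures used Python 3.11.15 and matplotlib 3.10.9.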

Additional observations from a re-analysis of the deposited data

Results flagged for a closer look

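The change of all 10 receptor genes differed between the arms by the limma contrast of survival less acute. The difference on the log2 scale was -3.56 for Csf2ra, -3.89 for Csf2rb, -3.87 for Csf2rb2, -3.42 for Csf3r, -3.22 for Il6ra, -4.88 for Il1r2, -2.81 for Fpr1, -4.44 for Fpr2, -3.29 for Trem1 and -2.22 for Tlr4. Acly also differed, by -0.923, since its fall was larger in the survival arm.

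Single libraries stood far from the rest of their group for 3 of 44 combinations of 11 genes and 4 groups, by the gap to the nearest library as a share of the group's range. Chance flags about 1 in 20. Acute control 2 was high for Csf2rb (0.705 of the range) and Il6ra (0.697), and survival knockout 4 was low for Tlr4 (0.768).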

How the results depend on the processing

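In the acute arm 10 of 10 receptor genes were called by limma under every alternative except the neutrophil covariate, with log2 fold changes of 2.04 to 4.65. In the survival arm none was called under any alternative in which it was tested, since 5 of the 10 were not tested with a filter at 50. With the neutrophil marker mean as covariate 0 acute and 0 difference calls were left among them, 0 and 1 among all genes, and the acute Csf2ra value was -0.76. That covariate separated the acute groups, so group and covariate cannot be told apart. Acute Acly was -0.74 with it and -0.081 with the T-cell receptor scaling, and its difference between arms was -0.21 with the covariate, all uncalled. With a filter at 50 the difference was called for 5, the only ones then tested. Uncalled survival values changed sign for Trem1 (0.0052 with pseudocount 5, 0.041 with quantile normalization, 0.33 with the covariate), Il6ra (-0.012 with the T-cell receptor scaling) and, with the covariate, Csf2rb2 (0.0026), Il1r2 (0.17) and Fpr2 (0.10); the cause was not tested. Leaving out 1 library gave survival ranges of -0.43 to 0.021 for Csf2rb, -0.20 to 0.27 for Csf3r, -0.27 to 0.21 for Trem1, -0.37 to 0.021 for summed Fpr1 and Fpr2, -1.11 (without knockout 1) to -0.22 (without knockout 2) for Il1r2, -0.77 to -0.23 (without controls 4 and 2 in turn) for Fpr2, 0.012 (without control 1) to 0.42 (without knockout 4) for Tlr4, -0.59 to -0.21 for Csf2ra, -0.35 to -0.017 for Csf2rb2, 0.20 to 0.57 for Fpr1 and 0.027 to 0.13 for Il6ra, none called.

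Counts over all genes moved by more than 1.5 times in places. The acute count of 5140 was 3228 with the replicate block and 2137 without knockouts 2 and 3, and the difference count of 3173 was 6942 with the T-cell receptor scaling and 1262 without those knockouts. The survival count of 2 ran from 1 to 24, the highest without control 4. The replicate block left 10 acute, 0 survival and 10 difference calls among the receptor genes. Same-numbered libraries correlated at -0.066 to 0.14 (acute) and -0.020 to 0.13 (survival), so the numbers were not taken as pairs, and not every library correlated best with its own number. Quantile scaling moved the acute median of all genes by -0.11. Read depth is unknown, so counting error at low values was not assessed.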

Other observations

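Dendritic cell markers were higher in the acute knockout for 4 of 8 tested and B-cell markers for 10 of 10. Without knockouts 2 and 3, 4 of each were higher, beside 2137 of all 16363 genes called in either direction. Of the 8, 2 reached the filter only with the help of knockout libraries, and 1 of these was called. Markers of mast cells and basophils, which also respond to interleukin 3 through the beta chains, were higher in the acute knockout for 7 of 7 tested (median log2 fold change 3.91) and for 6 of 7 without knockouts 2 and 3. Of the 7, Cpa3 and Ms4a2 reached the filter only with the help of knockouts, where they are high, so their difference was favoured by the filter. Their sum ran from 184 to 465.8 normalized counts in the acute controls, against 1637 to 4419 in the matching knockouts. Prss34 and Hdc were named after their values were seen. Prss34, a basophil protease, went from 25.2 ± 19.3 to 658 ± 298 normalized counts, and Hdc, which makes histamine, from 97.2 ± 37.9 to 1347 ± 766 (SD, n = 6 and 4). In survival knockouts the sum was 156 to 491, against 281 to 342 in survival controls, with 0 of 5 called in limma and 0 at an unadjusted p under 0.05.

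Ratios within a library do not depend on a scaling factor shared by all genes of that library. Csf2rb over Csf2rb2 had a median of 4.24 in acute controls and 3.78 in acute knockouts, within overlapping ranges of 2.82 to 4.75 and 3.22 to 4.09. Fpr2 over Fpr1 was 0.912 to 3.03 in acute controls and 3.04 to 3.73 in acute knockouts, and 1.14 to 4.87 in survival controls and 0.605 to 2.48 in survival knockouts. Il1r2 over Tlr4 was 0.367 to 1.03 in acute controls and 1.64 to 2.70 in acute knockouts, which did not overlap, while survival controls (0.0946 to 1.42) and knockouts (0.0823 to 1.17) did. These ratios were chosen after the values were seen and were not tested.

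Il1r1, the signaling interleukin 1 receptor, had similar log2 differences in both arms, 1.61 in the acute arm and 1.5 in the survival arm, where it went from 86.3 ± 32.9 to 256 ± 124 normalized counts (SD, n = 5 and 5) without passing the threshold (limma adjusted p = 0.185). The difference between the arms was -0.11 (adjusted p = 0.87).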
